A study of Mus musculus with 28 samples.

Results

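Cyclin-dependent kinase (CDK) inhibitors are the proteins that hold the cell cycle back, and 6 of their genes are described here in mouse cells with long, short or rescued telomeres on the way to primordial germ cells (PGCs, the precursors of eggs and sperm) and meiosis. The genes were taken by symbol from the deposited expression table, in which Cdkn1a, Cdkn1b, Cdkn2a, Cdkn2b, Cdkn2c and Cdkn2d each had 1 row of 53564. Bulk RNA-seq values of 16 libraries were used, 2 in each of 8 groups, as TPM, a unit that scales each library to the same total and corrects for transcript length. All cells carry the C57BL6 background. The LT line consists of wild-type embryonic stem cells (ESCs) with long telomeres, the ST line lacks Terc, the RNA template of telomerase, at generation 4 (G4) and has short telomeres, and in the RT line Terc and telomere length were restored. For the 1dEB groups, ESCs became epiblast-like cells over 2 days with bFGF and Activin A and were then grown for 1 day with BMP4 at 500 ng/ml, SCF, EGF and LIF, the start of PGC induction. For the 1dMeioLC groups, PGC-like cells (PGCLCs, 4 days of that induction) of each line, or E10.5 PGCs (PGC-1dMeioLC), were mixed with GFP-marked somatic cells from female E12.5 gonads (E marks embryonic days). They were given retinoic acid at 3 µM for 1 day and sorted as GFP-negative. The last group, E10.5PGC, holds the E10.5 PGCs themselves, sorted by integrin β3 (CD61) and SSEA1. No label says whether each line is 1 clone or whether the 2 libraries of a group came from separate cultures or embryos, so p-values measure the spread between these libraries only, which may be technical.

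CDKs pair with cyclins to drive the cell through its cycle, and their inhibitors fall into 2 families. The Cip/Kip proteins p21 (Cdkn1a) and p27 (Cdkn1b) bind CDK and cyclin complexes of several kinds. The INK4 proteins, p16 (Cdkn2a), p15 (Cdkn2b), p18 (Cdkn2c) and p19 (Cdkn2d), bind CDK4 and CDK6 and so keep RB active against E2F, the factor that switches on replication genes. Cdkn1a is the textbook target of p53, which responds to DNA damage and to uncapped telomeres, and Cdkn2a also encodes p19Arf, which protects p53 from Mdm2.

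On mm10, Cdkn1a lies at chr17:29090976-29100727 on the plus strand and Cdkn1b at chr6:134920401-134925513 on the plus strand. Cdkn2a, at chr4:89274471-89294653, and Cdkn2b, at chr4:89306299-89311039, are neighbours on the minus strand with 11646 bp between them. Cdkn2c lies at chr4:109660876-109667189 and Cdkn2d at chr9:21288410-21291407, both on the minus strand. An uncharacterised transcript of the other strand, AC167363.2, overlaps 1046 bp of Cdkn1a in GENCODE M21, and the sources used here do not say whether counting was by strand. All 6 genes had promoter sequence in RefSeq (GRCm38.p6), 9 windows in total from 250 bases before to 50 after a transcript start. The windows were searched on both strands for a p53 response element (by name: 2 half-sites of 10 bases, at most 13 bases apart, with at most 1 mismatch outside the core), a cAMP response element (CRE, spelled TGACGTCA), a GC box spelled GGGCGG, the letters CCAAT of the box of that name, and the TATA motif spelled TATAA. Of the 4 genes above 0 TPM in every group mean, the stretches of the 3 with the widest fold ranges are shown 5′ to 3′ on the strand of the gene, with matches in capitals, which do not overlap apart from the shared middle half-site of p53.
Cdkn1a, upstream start, chr17:29090896-29090957, capitals are 3 half-sites of the p53 consensus: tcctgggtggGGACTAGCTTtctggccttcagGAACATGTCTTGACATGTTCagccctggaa
Cdkn1a, downstream start, chr17:29093709-29093768, capitals are the GC box and TATAA: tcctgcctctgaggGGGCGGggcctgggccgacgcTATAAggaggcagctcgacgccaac
Cdkn2b, chr4:89311033-89311092, capitals are the CRE: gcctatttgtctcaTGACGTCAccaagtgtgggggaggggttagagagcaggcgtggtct
Cdkn1b, chr6:134920331-134920400, capitals are the GC box and CCAAT: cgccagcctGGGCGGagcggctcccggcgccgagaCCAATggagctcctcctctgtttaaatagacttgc
In Cdkn1a the pair of adjacent p53 half-sites had 1 mismatch and began 51 bases before the upstream start and 2841 bases before the downstream start. The outer and middle half-sites matched with 0 mismatches across a spacer of 12 bases. Of the 9 windows, the p53 element was found only in the upstream window of Cdkn1a and the CRE only in that of Cdkn2b. Among 32851 promoter windows, 0.417% held the p53 element, 1.79% the CRE, 35.7% a GC box, 37.4% a CCAAT box and 24.9% TATAA. These matches describe letters and do not show binding.

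Terc itself was listed at 0 in all ST libraries and also in both PGC-1dMeioLC libraries, while LT, RT and E10.5PGC libraries held 0.699 to 5.39 TPM. Depth is unknown, since TPM keeps no read counts. The share of TPM in protein-coding genes was 28.2% ± 1.39 (SD, n = 2) in RT 1dEB, 38.8% in LT and 44.3% in ST 1dEB, and 54.4% to 61.2% elsewhere, so every comparison was repeated with protein-coding genes scaled to the same total ("scaled" below). Ribosomal RNA-like genes (3 symbols) held 30.7% in RT, 20.8% in LT and 17.9% in ST 1dEB, and 0.691% to 7.11% elsewhere. Mitochondrial ribosomal RNA held 13.1% and 12.4% in the RT 1dEB libraries and at most 5.41% in any other. The source of these differences was not tested. The 8 early PGC genes summed to 3460 to 3483 TPM in E10.5PGC and to 419.8 to 620.0 TPM in LT, RT and PGC 1dMeioLC. In ST 1dMeioLC their sum was only 99.8 to 100.0 TPM, near the 65.5 to 88.6 TPM of the 1dEB groups. The 8 late germ cell and meiotic genes summed to 1256 to 1663 TPM in LT, RT and PGC 1dMeioLC but to only 537 to 539 TPM in ST 1dMeioLC. The 10 gonadal somatic markers stood at 166 to 258 TPM in all 1dMeioLC groups against 13.4 to 39.7 TPM elsewhere, although the sort was for GFP-negative cells. The 10 blood and endothelial markers summed to 11.7 to 16.4 TPM at 1dEB, but to 842 to 849 TPM in E10.5PGC and 706 to 1561 TPM in the 1dMeioLC groups. The haemoglobin gene Hba-a1 held much of these sums (415 to 1467 TPM in the means of those 5 groups), while Ptprc, the pan-leukocyte marker, was at 1.28 TPM or less in every group mean. In ST against LT 1dMeioLC, 0 of these 10 markers were called higher and 4 lower. Their sum was nevertheless higher in ST, at 1559 to 1561 TPM against 1275 to 1318 TPM in LT. In bulk RNA, fewer cells of a type and less RNA per cell cannot be told apart.

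Cdkn1a made up most of the transcripts of these 6 genes at 1dEB and a smaller share in the 1dMeioLC groups and in E10.5PGC. Of the summed TPM of the 6 genes, Cdkn1a held 88.3% ± 0.484 (SD, n = 2) in ST 1dEB, 89.8% in RT and 79.1% in LT. At 1dMeioLC its share was 59.2% in ST, 49.4% in LT, 39.4% in RT and 36.7% in PGC-1dMeioLC. Cdkn1b held 40.6% in PGC-1dMeioLC, 12.1% in E10.5PGC and 0.208% in ST 1dEB. In E10.5PGC, Cdkn2d was the largest component at 50.3%. The sum itself was 953 TPM in ST 1dEB, 315 in RT and 98.1 in LT, and 45.3 TPM in E10.5PGC.

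**Figure D1:**
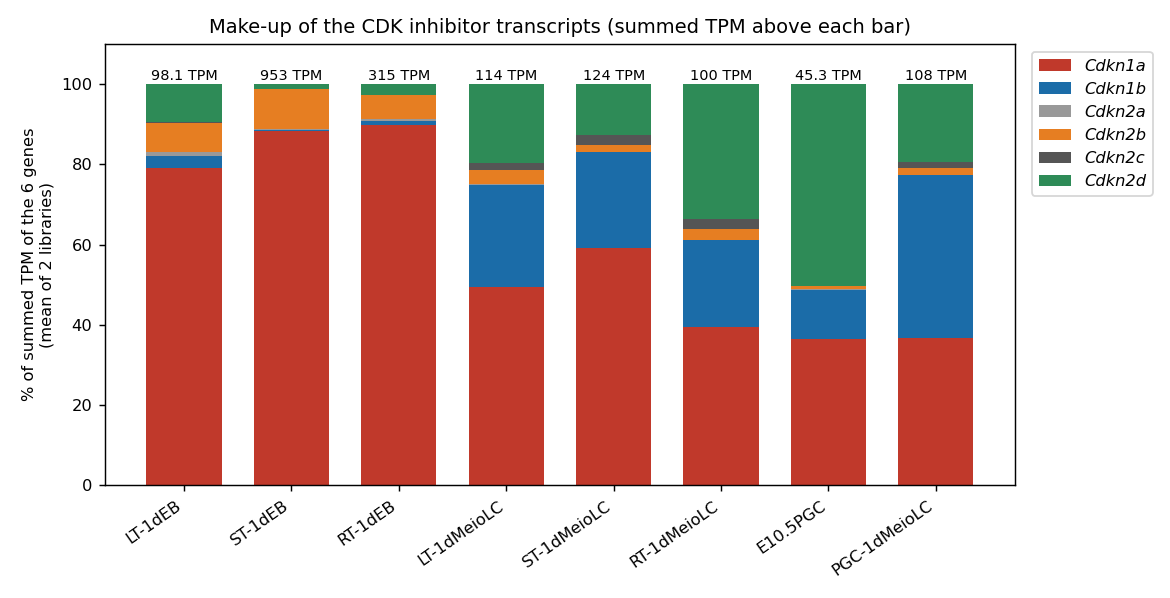
Stacked bars give the mean percentage of the summed TPM of the 6 genes held by each gene in the 8 groups (2 libraries each), with the summed TPM written above each bar. Cdkn1a (red) holds 79.1% to 89.8% at 1dEB, and Cdkn1b (blue) reaches 40.6% in PGC-1dMeioLC.

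Cdkn1a spanned a 50.8-fold range of group means. It was at 833 and 849 TPM in ST 1dEB, 271 and 294 in RT 1dEB and 77.8 and 77.3 in LT 1dEB. At 1dMeioLC it was at 71.2 and 76.0 TPM in ST, 58.6 and 53.9 in LT, 38.3 and 40.6 in RT and 39.9 and 39.0 in PGC-1dMeioLC, and it was lowest in E10.5PGC, at 15.8 and 17.3 TPM. Only RT 1dMeioLC and PGC-1dMeioLC overlapped among neighbours in this order, and every 1dEB library was above every 1dMeioLC library.

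Cdkn1b was lowest where Cdkn1a was highest, with a 22.0-fold range. It was at 44.3 and 43.1 TPM in PGC-1dMeioLC, 31.1 and 28.5 in ST, 28.0 and 30.0 in LT and 21.6 and 22.0 in RT 1dMeioLC. E10.5PGC held 5.74 and 5.25 TPM, and the 1dEB groups held 2.95 and 2.77 in LT, 3.03 and 2.76 in RT and 2.02 and 1.94 in ST. The LT and ST 1dMeioLC libraries overlapped, as did LT and RT 1dEB, and ST 1dEB stood lowest without overlap.

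Cdkn2b had a 242-fold range, the widest of the 4 genes above 0 TPM in every group mean, and none of its neighbouring groups overlapped. It was at 97.1 and 90.5 TPM in ST 1dEB, 19.9 and 17.8 in RT and 6.43 and 7.88 in LT. The 1dMeioLC groups held 4.43 and 3.74 TPM in LT, 2.62 and 2.76 in RT, 2.21 and 2.11 in ST and 1.98 and 1.65 in PGC-1dMeioLC, and E10.5PGC held 0.478 and 0.296 TPM. The order of the lines thus differed between stages, with ST highest at 1dEB and LT highest at 1dMeioLC. Its neighbour Cdkn2a was low. It was at 3.67 and 3.98 TPM in ST 1dEB, 1.94 and 1.42 in RT and 1.33 and 0.921 in LT, and at 1dMeioLC and in E10.5PGC it was listed at 0 or reached at most 0.278 TPM. Its row does not separate p16 from p19Arf.

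The other INK4 genes differed in level. Cdkn2d, which had the narrowest range of the same 4 genes (3.99-fold), was at 36.4 and 31.0 TPM in RT, 23.4 and 21.1 in LT, 19.6 and 22.4 in PGC and 15.9 and 15.5 in ST 1dMeioLC. It was at 23.4 and 22.2 TPM in E10.5PGC and at 10.8 and 12.3 in ST, 8.67 and 9.83 in LT and 7.03 and 9.86 in RT 1dEB. RT 1dMeioLC was highest without overlap, E10.5PGC, LT and PGC-1dMeioLC overlapped, and the 1dEB groups were lowest. Cdkn2c, the p18 gene, was listed at 0 in both E10.5PGC libraries and was at 0.583 TPM or less at 1dEB. It was at 3.27 and 3.06 TPM in ST, 1.94 and 2.97 in RT, 1.56 and 2.43 in LT and 1.71 and 1.45 in PGC 1dMeioLC, where ST alone did not overlap its neighbour.

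**Figure D2:**
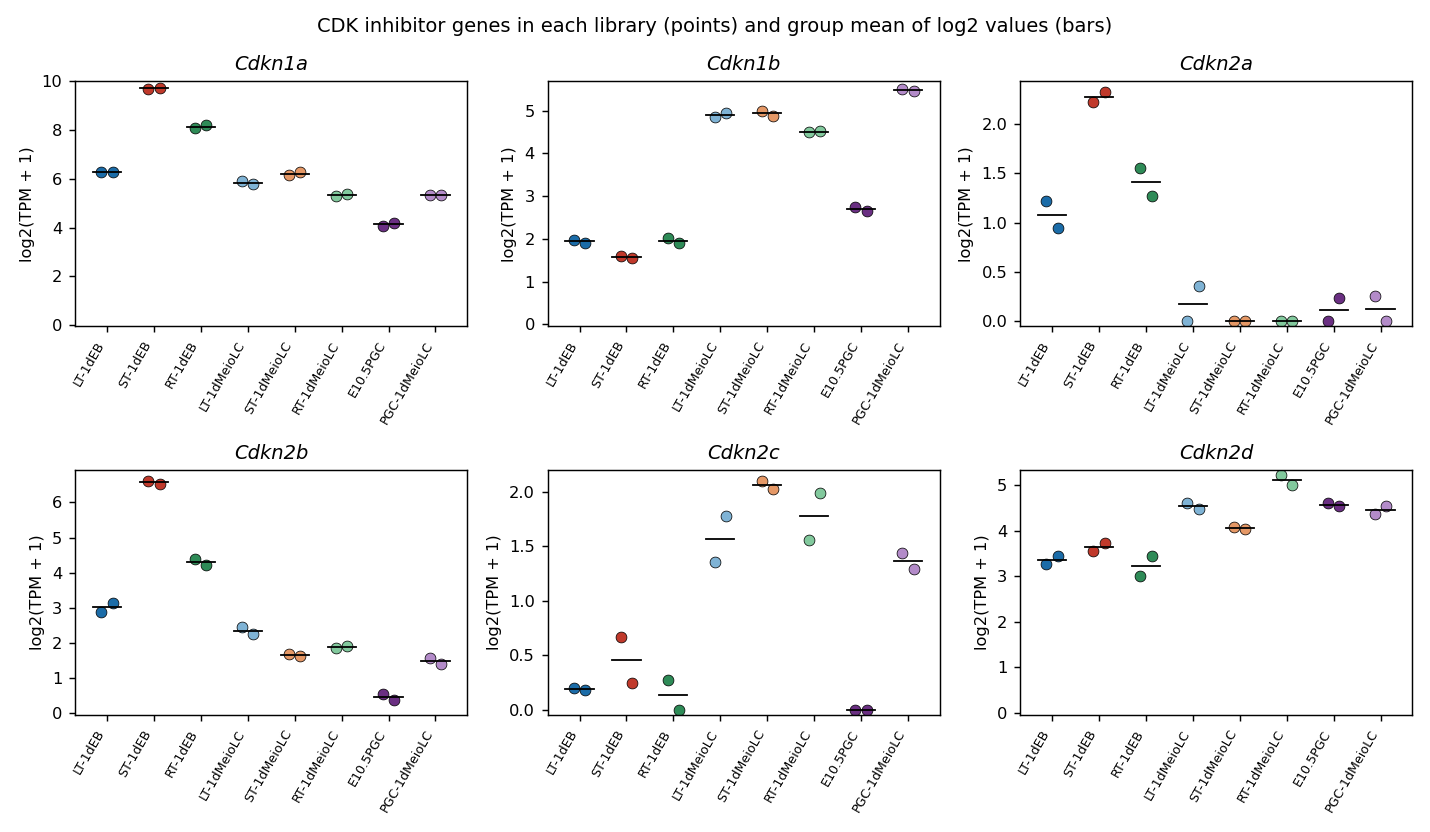
Each panel shows 1 gene, with log2(TPM + 1) on the vertical axis, a point for each library and a bar at the mean of the 2 libraries of a group. Cdkn1a and Cdkn2b are highest in ST 1dEB (841 and 93.8 TPM on average), while Cdkn1b is highest in PGC-1dMeioLC (43.7 TPM).

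The ST and LT lines were compared at 1dEB, early in PGC induction. Cdkn1a and Cdkn2b were more than an order of magnitude higher in the short-telomere line, Cdkn2a was higher from a low level and Cdkn1b was lower. Cdkn1a averaged 841 ± 11.1 TPM (SD, n = 2) in ST and 77.5 ± 0.402 TPM in LT, a 10.8-fold ratio and a log2 fold change of 3.42 (limma, Benjamini-Hochberg adjusted p = 2.34e-10). All fold changes are on the log2(TPM + 1) scale, which understates changes of low genes. The spread was shared by all groups, so the standard error of any difference between 2 groups was 0.063 for Cdkn1a, 0.075 for Cdkn1b, 0.17 for Cdkn2a, 0.12 for Cdkn2b, 0.20 for Cdkn2c and 0.14 for Cdkn2d. Cdkn2b averaged 93.8 ± 4.69 TPM against 7.15 ± 1.02 TPM, a 13.1-fold ratio (log2 fold change 3.54, limma adjusted p = 7.88e-09). Cdkn2a rose by 1.19 (limma adjusted p = 0.000306), a call that a pseudocount of 0.1 TPM removed (adjusted p = 0.0885). Cdkn1b fell from 2.86 to 1.98 TPM (log2 fold change -0.37, limma adjusted p = 0.00251), which was not called when only these 4 libraries were fitted (adjusted p = 0.093). Cdkn2c (0.26, limma adjusted p = 0.352) and Cdkn2d (0.30, limma adjusted p = 0.132) were not called. Thus 3 of 6 genes were higher and 1 lower, where 38.4% of 21935 genes tested were called, 26.7% higher and 11.6% lower. Scaled values also gave 3 and 1, where 40.8% were called, 21.8% higher and 19.0% lower. The median log2 fold change was 0.74 over the 6 genes and 0.10 over all genes. Scaling left Cdkn1a at 3.23 and Cdkn2b at 3.39.

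Stromal markers moved with Cdkn1a and Cdkn2b at 1dEB. The 12 fibroblast and feeder markers summed to 914 to 940 TPM in ST, 206 to 228 TPM in RT and 102 TPM in LT, and all 12 were higher in ST than in LT. Col1a1, a fibrillar collagen chain, averaged 94.3 TPM in ST, 35.3 in RT and 2.93 in LT. At 1dMeioLC the same markers summed to 387 to 472 TPM, above RT 1dEB and below ST 1dEB. In those libraries Cdkn1a was at 76.0 TPM or less and Cdkn2b at 4.43 TPM or less. The 12 markers did not move together between stages. From 1dEB to 1dMeioLC, 3 were higher and 8 lower in ST, and 9 higher and 3 lower in both LT and RT. Other marker lists differed between the lines at 1dEB too. The 7 pluripotent and epiblast markers summed to 965 to 1018 TPM in LT, 665 to 669 TPM in ST and 562 to 653 TPM in RT. Against LT, 0 of them were higher and 4 lower in ST, and 0 and 5 in RT. Of 10 gonadal somatic markers, 6 were higher and 1 lower in ST, and 3 and 3 in RT. The part of stromal or other cells in the 1dEB differences was not tested, and the sources used here do not say whether feeder cells were present.

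**Figure D3:**
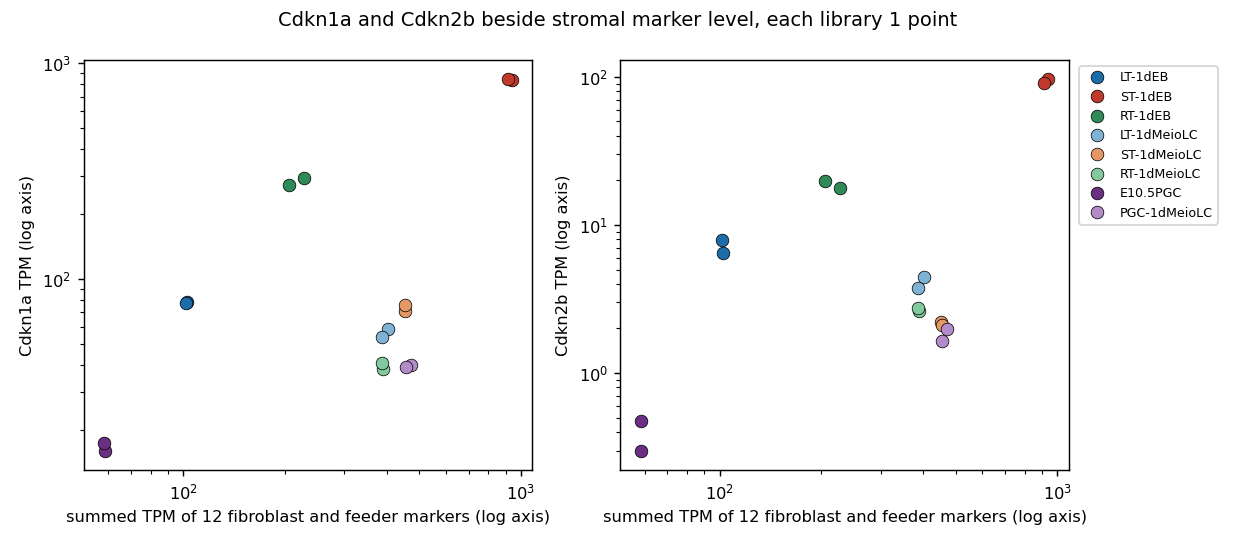
Each point is 1 library, with the summed TPM of 12 fibroblast and feeder markers on the horizontal axis and the TPM of Cdkn1a (left) or Cdkn2b (right) on the vertical axis, all log axes. The 1dEB libraries line up from LT (102 TPM of markers) to ST (914 to 940 TPM), while the 1dMeioLC libraries combine marker sums of 387 to 472 TPM with Cdkn1a at 38.3 to 76.0 TPM.

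In the rescued line at 1dEB, Cdkn1a and Cdkn2b were lower than in ST and still higher than in LT, under TPM as deposited and scaled alike. Cdkn1a averaged 283 ± 15.7 TPM (SD, n = 2) in RT, 2.98-fold below ST (log2 fold change -1.57, limma adjusted p = 3.7e-08) and 3.64-fold above LT (1.85, limma adjusted p = 2.65e-08). Scaled, the same differences were -0.92 (limma adjusted p = 1.35e-06) and 2.31. Cdkn2b, at 18.9 ± 1.54 TPM, was 4.97-fold below ST (-2.26, limma adjusted p = 1.8e-07; scaled -1.63) and 2.64-fold above LT (1.29, limma adjusted p = 1.21e-05; scaled 1.76). Both comparisons use the same RT libraries, so they are not independent.

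For Cdkn1b, Cdkn2a and Cdkn2d the comparisons of RT at 1dEB depended in part on the scaling. Cdkn1b was 0.38 higher in RT than in ST (limma adjusted p = 0.00143; 0.0622 when only these libraries were fitted), and scaled it was 0.93 higher. Against LT it stood at 0.01 (limma adjusted p = 0.938), but at 0.39 when scaled (adjusted p = 0.00356). Cdkn2a was 0.86 log2 units below ST (-0.86, limma adjusted p = 0.00194), a call that scaling removed (-0.43, adjusted p = 0.0871), as did a pseudocount of 0.1 TPM (adjusted p = 0.213). Against LT, Cdkn2a was not called (0.33, limma adjusted p = 0.159), and was called higher when scaled (0.70, adjusted p = 0.0104). Cdkn2d was called lower than in ST as deposited (-0.43, limma adjusted p = 0.0272) and stood at 0.17 when scaled (adjusted p = 0.345). Its call was also lost without RT 1dEB replicate 1 (adjusted p = 0.251) or ST 1dEB replicate 2 (adjusted p = 0.149). Cdkn2c was called in neither comparison (-0.31 and -0.05; limma adjusted p = 0.234 and 0.897).
Against ST, 1 gene was thus higher and 4 were lower, where 49.7% of all genes were called, 5.14% higher and 44.6% lower. Scaled, 1 was higher and 2 lower where 38.6% of genes were called, 21.3% higher and 17.2% lower, and the median over all genes went from -0.38 to 0.06. Against LT, 2 were higher and 0 lower (4 and 0 scaled), where 41.6% of all genes were called, 10.7% higher and 30.9% lower (40.4% scaled, 25.9% and 14.6%). That median went from -0.17 to 0.11 with scaling.

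At 1dMeioLC the lines differed far less in Cdkn1a, and Cdkn2b had the other direction. ST and LT were compared after 1 day of meiotic culture. Cdkn1a averaged 73.6 ± 3.41 TPM (SD, n = 2) in ST and 56.2 ± 3.27 TPM in LT, a 1.31-fold ratio (log2 fold change 0.38, limma adjusted p = 0.00116). Cdkn2b fell from 4.09 ± 0.489 to 2.16 ± 0.0728 TPM (-0.68, limma adjusted p = 0.00163). Cdkn2d was at 15.7 TPM in ST and 22.3 TPM in LT (-0.48, limma adjusted p = 0.024), and this call was lost without any 1 of the 4 libraries, with adjusted p from 0.0531 to 0.13. Cdkn1b (0.04, limma adjusted p = 0.771), Cdkn2c (0.49, adjusted p = 0.0856) and Cdkn2a (-0.18, adjusted p = 0.49) were not called. Hence 1 gene was higher and 2 lower, where 35.1% of all genes were called, 17.4% higher and 17.7% lower (1 and 2 scaled, where 4446 and 2947 of 22746 genes were, 32.5% in all). The summed late germ cell and meiotic markers were also lower in ST than in LT there (537 to 539 against 1563 to 1565 TPM, 8 of 8 genes lower), as were 3 of 8 early PGC genes (1 higher). Of 7 pluripotent and epiblast markers, 4 were higher in ST and 1 lower (sums of 142 to 144 against 75.4 to 83.4 TPM). Of 12 fibroblast markers, 4 were higher and 3 lower, and of 10 gonadal somatic markers, 3 and 2. The part of all these markers in the differences was not tested.

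In RT 1dMeioLC, Cdkn1a was lower than in both other lines and Cdkn2d was higher. Cdkn1a averaged 39.5 ± 1.59 TPM (SD, n = 2) in RT, with log2 fold changes of -0.88 against ST (limma adjusted p = 9.28e-06) and -0.50 against LT (limma adjusted p = 0.000673). Cdkn1b, at 21.8 ± 0.272 TPM, was lower than in ST (-0.43, limma adjusted p = 0.00166) and than in LT (-0.39, limma adjusted p = 0.00612), the second call being lost without LT replicate 2 (adjusted p = 0.0594). Cdkn2d averaged 33.7 ± 3.83 TPM, 2.15-fold above ST (1.05, limma adjusted p = 0.000375). Its excess over LT (0.57, limma adjusted p = 0.0191) was not called without LT replicate 1 (adjusted p = 0.0506), LT replicate 2 (0.121) or RT replicate 1 (0.113).
Cdkn2b was not called against ST (0.22, limma adjusted p = 0.186) and was lower than in LT (-0.46, limma adjusted p = 0.0245), a call lost without LT replicate 1 (adjusted p = 0.147), RT replicate 1 (0.0993) or RT replicate 2 (0.0755). This Cdkn2b call was also lost at a pseudocount of 0.1 TPM (limma adjusted p = 0.0606; 0.064 when scaled as well). Quantile normalization (0.0981) and a fit of only the groups compared (0.099) lost it too, while scaling alone kept it (0.0382). Cdkn2c stood at -0.29 against ST (limma adjusted p = 0.32) and 0.21 against LT (adjusted p = 0.542), and Cdkn2a was listed at 0 in both lines of the first comparison. Against ST, 1 gene was higher and 2 lower, where 33.3% of all genes were called, 13.1% higher and 20.2% lower (1 and 2 scaled, where 33.0% were called, 9.55% and 23.4%). Against LT, 1 was higher and 3 were lower, where 18.6% were called, 6.20% higher and 12.4% lower (1 and 3 scaled, where 15.8% were called). Germ cell and somatic markers differed in the same comparisons. Against ST, 8 of 8 late germ cell genes were higher in RT, 4 of 8 early PGC genes were higher and 2 lower, and 2 of 10 gonadal somatic markers were higher and 4 lower. Against LT, 4 late germ cell, 2 early PGC and 4 gonadal somatic markers were lower and 0 higher. Their part in these differences was not tested.

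**Figure D4:**
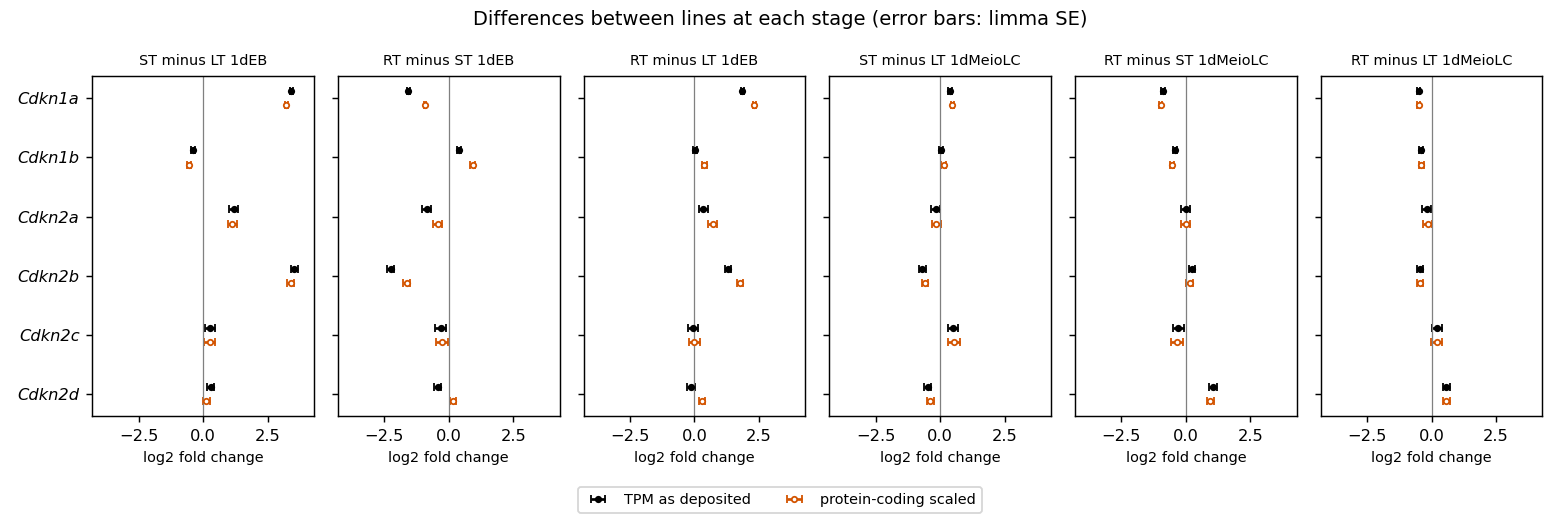
Log2 fold changes (horizontal axis) of the 6 genes in 6 comparisons between lines, for TPM as deposited (black) and protein-coding scaled TPM (orange, open), with bars of 1 limma standard error. Cdkn1a and Cdkn2b lie at 3.42 and 3.54 in ST minus LT 1dEB and at 0.38 and -0.68 in ST minus LT 1dMeioLC, and Cdkn2d changes sign with scaling in RT minus ST and RT minus LT 1dEB.

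Between 1dEB and 1dMeioLC, Cdkn1a, Cdkn2a and Cdkn2b fell and Cdkn1b and Cdkn2c rose in each line. Cdkn1b rose by 2.96 log2 units in LT (10.1-fold, limma adjusted p = 1.47e-10), by 3.37 in ST (limma adjusted p = 8.72e-11) and by 2.55 in RT (7.54-fold, limma adjusted p = 3.02e-10). Cdkn1a fell by 0.46 log2 units in LT (limma adjusted p = 8.38e-05), by 3.50 in ST (11.4-fold, limma adjusted p = 2.85e-11) and by 2.81 in RT (limma adjusted p = 4.48e-11). Cdkn2b fell by 0.68, 4.91 and 2.43 in LT, ST and RT, with limma adjusted p of 0.000514, 1.71e-10 and 1.89e-08, and Cdkn2a fell by 0.90, 2.27 and 1.41, with limma adjusted p of 0.00095, 9.61e-07 and 3.3e-05. Cdkn2c rose by 1.38, 1.61 and 1.63, with limma adjusted p of 0.000133, 4.46e-05 and 3.32e-05. Cdkn2d rose by 1.18 in LT (limma adjusted p = 2.68e-05) and by 1.89 in RT (limma adjusted p = 5.55e-07). Its rise of 0.41 in ST (limma adjusted p = 0.0257) was lost with scaling (0.08, adjusted p = 0.635) and without ST 1dEB replicate 1 or either ST 1dMeioLC library (adjusted p = 0.0673 to 0.142). Scaling kept the other calls and changed several sizes by over 1.5 times. In LT the scaled change was -1.10 for Cdkn1a, -1.23 for Cdkn2b and 0.58 for Cdkn2d. In RT it was 1.63 for Cdkn1b and 0.86 for Cdkn2d.
All 6 genes were called in each line, 3 higher and 3 lower (2 and 3 in ST when scaled). Of all genes, 64.5% were called in LT, 62.9% in ST and 65.7% in RT (63.6%, 61.9% and 69.6% scaled). As deposited, 40.4% rose and 24.0% fell in LT, 33.3% and 29.6% in ST, and 43.7% and 22.0% in RT. Scaled, the splits were 26.2% and 37.4%, 24.5% and 37.4%, and 22.4% and 47.2%. The stages also differ in co-culture, retinoic acid and sorting, which cannot be told apart from the days of differentiation. Cell type markers differed too, with 8 of 8 late germ cell genes higher at 1dMeioLC in each line. Of 10 gonadal somatic markers, 9 were higher in LT, 9 in ST (1 lower) and 10 in RT. Their part in these changes was not tested.

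Whether the difference between lines itself changed from 1dEB to 1dMeioLC was tested directly. The ST minus LT difference was lower at 1dMeioLC than at 1dEB by 3.04 log2 units for Cdkn1a (-3.04, SE 0.089, limma adjusted p = 1.16e-08) and by 4.23 for Cdkn2b (-4.23, SE 0.17, limma adjusted p = 7.55e-08). For Cdkn2a it was -1.37 (SE 0.25, limma adjusted p = 0.00154; 0.0628 at a pseudocount of 0.1 TPM). It was -0.77 for Cdkn2d (SE 0.20, limma adjusted p = 0.0116; scaled -0.50, adjusted p = 0.0563) and 0.41 for Cdkn1b (SE 0.11, limma adjusted p = 0.0115; scaled 0.67; adjusted p = 0.052 at a pseudocount of 5 TPM), while Cdkn2c was not called (0.23, SE 0.29, adjusted p = 0.568). Of the 6 genes, 1 was called upward and 4 downward (1 and 3 scaled), against 38.6% of all genes called, 12.2% upward and 26.4% downward (37.6% scaled, 19.0% and 18.6%).
The RT minus ST difference changed by 2.48 for Cdkn2b (limma adjusted p = 2.19e-06), 1.48 for Cdkn2d (limma adjusted p = 0.000199; scaled 0.78) and -0.82 for Cdkn1b (limma adjusted p = 0.000154; scaled -1.45). For Cdkn1a it changed by 0.69 as deposited (limma adjusted p = 0.000156) and by -0.06 scaled (adjusted p = 0.598), and for Cdkn2a by 0.86 (limma adjusted p = 0.0175) and 0.43 scaled (adjusted p = 0.218). The Cdkn2a call was also lost without ST 1dEB replicate 2 (adjusted p = 0.0504) or RT 1dEB replicate 2 (0.0708). Cdkn2c was not called (0.03, scaled -0.08). Here 4 were upward and 1 downward (2 and 1 scaled), where 42.2% of all genes were called, 34.6% upward and 7.65% downward. Scaled, 36.6% of 22746 genes were called, 2843 upward and 5472 downward.

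Cdkn1b, Cdkn1a, Cdkn2b and Cdkn2c were higher in PGC-1dMeioLC than in E10.5PGC. Against E10.5PGC, Cdkn1b rose from 5.49 ± 0.344 to 43.7 ± 0.837 TPM (SD, n = 2) in PGC-1dMeioLC, a 7.95-fold ratio (log2 fold change 2.78, limma adjusted p = 8.59e-10). Cdkn1a rose 2.38-fold from 16.6 to 39.4 TPM (1.20, limma adjusted p = 8.87e-08) and Cdkn2b 4.68-fold from 0.387 to 1.81 TPM (1.02, limma adjusted p = 3.6e-05). Cdkn2c, listed at 0 before culture, averaged 1.58 TPM after it (1.37, limma adjusted p = 0.000195). Cdkn2d, at 22.8 TPM before culture, was not called (-0.12, limma adjusted p = 0.542; scaled 0.05), and Cdkn2a was at 0.196 TPM or less in these libraries (0.01, adjusted p = 1). So 4 of 6 genes were higher and 0 lower, where 53.6% of all genes were called, 34.7% higher and 18.9% lower (4 and 0 scaled, where 51.1% were called). The gonadal somatic markers were higher after culture too, in 10 of 10 genes, as were 10 of 12 fibroblast markers. Of 8 early PGC genes, 8 were lower, and of 8 late germ cell genes, 8 were higher. The part of these markers was not tested. The groups also differ in co-culture, retinoic acid and the markers used for sorting, which cannot be told apart here.

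The 3 lines were also set beside PGC-1dMeioLC, which serves as the common reference of these comparisons. Cdkn1b was lower in every line, by 0.58 in LT (limma adjusted p = 0.000523), 0.54 in ST (limma adjusted p = 0.000279) and 0.97 in RT (limma adjusted p = 8.42e-06), or -0.58, -0.54 and -0.97. Cdkn1a was higher in LT (0.50, limma adjusted p = 0.000446) and ST (0.88, limma adjusted p = 3.07e-06) and stood at 0.00 in RT (adjusted p = 1; scaled -0.16). Cdkn2b was higher in LT (0.85, limma adjusted p = 0.000833) and in RT (0.39, limma adjusted p = 0.0301; not called when scaled, 0.27, adjusted p = 0.128), and was at 0.17 in ST (adjusted p = 0.296). Cdkn2d was higher in RT (0.66, limma adjusted p = 0.00557) and lower in ST (-0.39, limma adjusted p = 0.0454), and Cdkn2c was higher in ST (0.69, limma adjusted p = 0.0189). The ST calls of Cdkn2d and Cdkn2c were lost at a pseudocount of 0.1 TPM (adjusted p = 0.0543 and 0.199). Leaving out either library of either group lost the Cdkn2d call (0.0573 to 0.226), and PGC-1dMeioLC replicate 2 or either ST library decided that of Cdkn2c (0.0564 to 0.0963). Without PGC-1dMeioLC replicate 2 or either RT library, the RT call of Cdkn2b was lost as well (0.0754 to 0.166). In LT 2 genes were higher and 1 lower, where 21.7% of all genes were called, 13.4% higher and 8.25% lower (2 and 1 scaled, with 21.4% called, 7.93% and 13.5%). In ST 2 were higher and 2 lower, where 41.8% were called, 23.1% higher and 18.8% lower (2 and 2 scaled, with 39.0% called). In RT 2 were higher and 1 lower, where 31.4% were called, 14.4% higher and 17.0% lower (1 and 1 scaled, with 33.2% called, 9.71% and 23.5%). Cell type markers also differed from PGC-1dMeioLC. Of 8 late germ cell genes, 2 were lower in LT, 8 in ST and 7 in RT, and 0 were higher. Of 8 early PGC genes, 2, 5 and 4 were lower in LT, ST and RT, and 1 was higher in each. Of 10 gonadal somatic markers, 1, 3 and 5 were lower and 1, 3 and 1 higher. Their part in these differences was not tested.

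The other 2 CDK inhibitor genes of the list tracked the stage. Cdkn1c, which encodes p57 of the Cip/Kip family, averaged 20.8 TPM in E10.5PGC and 121 TPM in PGC-1dMeioLC (log2 fold change 2.49, limma adjusted p = 2.57e-09), 20.2 to 26.6 TPM at 1dEB and 79.2 to 91.1 TPM in the 1dMeioLC of the lines. Cdkn3, a phosphatase that acts on CDKs, averaged 17.3 TPM in E10.5PGC, 4.36 to 5.51 TPM at 1dEB and 35.2 to 49.4 TPM in the 4 groups of 1dMeioLC. Cdkn1c was 0.38 higher in ST than in LT 1dEB (limma adjusted p = 0.00308), a call lost with scaling (0.19), and Cdkn3 was 0.46 log2 units lower in ST than in LT 1dMeioLC (-0.46, limma adjusted p = 0.00444).

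Genes of the p53 response lay higher with Cdkn1a in ST 1dEB. Of 25 genes of p53 and its targets, 20 were higher and 2 lower in ST than in LT, where 26.7% of all genes were higher and 11.6% lower. Scaled, 17 were higher and 2 lower, beside 21.8% and 19.0% of all genes. The median was 0.67, against 0.10 over all genes. Phlda3, an inhibitor of Akt, rose from 46.2 to 310 TPM (log2 fold change 2.72, limma adjusted p = 9.15e-07) and Mdm2, the ubiquitin ligase of p53, from 17.6 to 75.2 TPM (2.04, limma adjusted p = 3.51e-08). Fas, a death receptor, rose by 2.25 and Plk2, a polo-like kinase, by 2.03. Trp53 itself was lower (-0.66, limma adjusted p = 2.91e-05), as was Tigar, a regulator of glycolysis (-0.41, limma adjusted p = 0.0212). Trp53cor1 (lincRNA-p21), which lies 11797 bp from Cdkn1a, was at 1.74 TPM in ST and 0.979 TPM in LT and was not called (0.47, limma adjusted p = 0.0501). In RT against LT 1dEB, 11 of the 25 were higher and 5 lower (all genes 10.7% and 30.9%) and, scaled, 19 and 4 (25.9% and 14.6%), led by Bbc3, which encodes the death factor PUMA (1.37), Phlda3 (1.28) and Plk2 (1.15). RT against ST 1dEB had 1 higher and 20 lower as deposited (all genes 5.14% and 44.6%) but 5 and 6 scaled (21.3% and 17.2%), with Gadd45a, a growth arrest gene, at -2.08 (scaled -1.46).
At 1dMeioLC, 12 of the 25 were higher and 2 lower in ST than in LT (13 and 2 scaled), beside 17.4% and 17.7% of all genes, with Phlda3 at 32.7 against 7.02 TPM (2.08, limma adjusted p = 2.41e-05) and Sesn2, a stress-responsive sestrin, at 1.11. RT against ST 1dMeioLC had 2 higher and 10 lower (1 and 14 scaled), beside 13.1% and 20.2% of all genes, with Phlda3 at -1.37 and Sesn1 at -0.93. After culture of PGCs, 15 were higher and 4 lower, beside 34.7% and 18.9% of all genes, with Plk2 at 2.74 and Trp53 at -1.26.

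E2F target genes, which code for replication factors, were lower in ST and RT than in LT 1dEB, the reverse of Cdkn1a. Of 20, 0 were higher and 18 lower in ST than in LT (0 and 20 scaled), where 26.7% of all genes were higher and 11.6% lower (21.8% and 19.0% scaled). The median was -0.59, against 0.10 over all genes. Cdc6, a loader of replication origins, fell from 14.9 to 5.62 TPM (-1.27, limma adjusted p = 5.66e-06), Gins1, of the replicative helicase, from 39.6 to 16.6 TPM (-1.21), and Tk1, thymidine kinase, from 15.8 to 6.41 TPM (-1.18). In RT all 20 were lower than in LT as deposited, where 30.9% of all genes were, and 13 when scaled, where 14.6% were (0 higher in both), with Cdc6 at -1.59 (scaled -1.24). RT against ST 1dEB reversed with scaling, from 1 higher and 12 lower (all genes 5.14% and 44.6%) to 12 higher and 0 lower (21.3% and 17.2%). At 1dMeioLC, ST against LT had 2 higher and 5 lower (3 and 3 scaled), with a median of -0.07, and these 7 of 20 were at the share of all genes called (35.1%). The change of the ST minus LT difference between stages was upward in 16 of 20 genes and downward in 0 (17 and 0 scaled), beside 12.2% and 26.4% of all genes, opposite to that of Cdkn1a. From 1dEB to 1dMeioLC, where Cdkn1a fell in each line, the E2F targets did not all rise. As deposited, 7 were higher and 10 lower in LT, 12 and 5 in ST, and 14 and 3 in RT. All genes stood at 40.4% and 24.0%, 33.3% and 29.6%, and 43.7% and 22.0%. Scaled, the targets gave 3 and 14, 9 and 6, and 6 and 11 (all genes 26.2% and 37.4%, 24.5% and 37.4%, and 22.4% and 47.2%). In PGC culture, 2 E2F targets were higher and 18 lower (median -0.97; all genes 34.7% and 18.9%), with Ung, a DNA repair glycosylase, at -2.18, Mcm7, a helicase subunit, at -1.40, and Uhrf1, a cofactor of DNA methylation, at 1.36.

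Among CDKs and cyclins, 18 of 19 genes passed the filter, and 4 were higher and 6 lower in ST than in LT 1dEB, beside 26.7% and 11.6% of all genes (4 and 9 scaled, beside 21.8% and 19.0%). Of the D-type cyclins, the partners of CDK4 and CDK6, Ccnd1 rose from 34.6 to 97.0 TPM (1.46, limma adjusted p = 1.17e-07) and Ccnd2 to 29.0 TPM (1.10). Ccne1, cyclin E, fell from 54.4 to 33.7 TPM (-0.68) and Ccnb2, a mitotic cyclin, from 95.4 to 50.7 TPM (-0.90). In RT, 0 were higher and 14 lower than in LT (2 and 8 scaled), beside 10.7% and 30.9% of all genes (25.9% and 14.6% scaled), with Ccne1 at -1.79, and Ccnd1 was below ST (-1.41, scaled -0.77). In PGC culture, 5 were higher and 9 lower (all genes 34.7% and 18.9%), with Ccnd2 rising from 6.33 to 50.0 TPM (2.80), Ccnd1 from 4.90 to 28.8 TPM (2.34) and Cdk6, the kinase the INK4 proteins bind, from 3.54 to 12.2 TPM (1.54). At 1dMeioLC, ST against LT had 5 higher and 3 lower (6 and 3 scaled), where 35.1% of all genes were called, with Ccnd1 at 0.48 and Ccne1 at -0.68.
Of 13 RB family and E2F factor genes, 1 was higher and 4 lower in ST than in LT 1dEB (1 and 4 scaled). Of all genes, 38.4% were called there, 26.7% higher and 11.6% lower (21.8% and 19.0% scaled). The one that rose was Rb1, the retinoblastoma gene (0.57, limma adjusted p = 0.00213). In PGC culture 6 rose and 3 fell, where 53.6% of all genes were called, with Rb1 at 1.26 and E2f2 at -1.33.

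**Figure D5:**
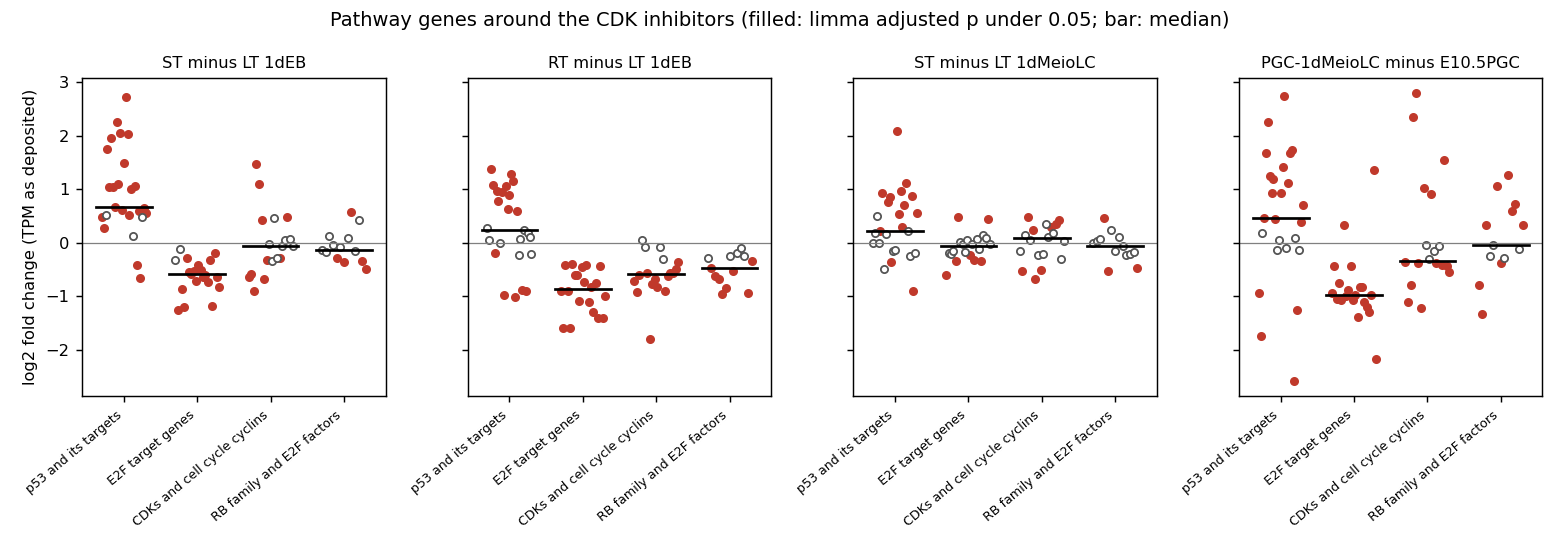
Log2 fold changes of genes in 4 lists (p53 and its targets, E2F targets, CDKs and cyclins, RB and E2F factors) in 4 comparisons of TPM as deposited, where filled points passed limma adjusted p under 0.05, open ones did not, and bars are medians. In ST minus LT 1dEB the p53 list has a median of 0.67 and the E2F targets one of -0.59, against 0.22 and -0.07 in ST minus LT 1dMeioLC.

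Regulators of the inhibitors themselves were mixed. Of 18 regulators and neighbours of the INK4 locus, 8 were higher and 4 lower in ST than in LT 1dEB as deposited (all genes 26.7% and 11.6%), and 5 higher and 7 lower when scaled (21.8% and 19.0%). Among Polycomb genes, whose products silence the locus, Bmi1 rose from 1.06 to 6.27 TPM (1.82, limma adjusted p = 1.1e-05) and Suz12 fell from 48.0 to 18.9 TPM (-1.30, limma adjusted p = 9.37e-07). Ets1, an activator of Cdkn2a, rose by 1.58 and Id3, an inhibitor of basic helix-loop-helix factors, by 1.79. Kdm6b, the demethylase that removes the Polycomb mark, was at 146 TPM in ST and 75.0 TPM in LT 1dMeioLC (0.95, limma adjusted p = 0.000217), and rose from 15.9 to 103 TPM in PGC culture (2.62). That culture had 11 of 18 higher and 3 lower (13 and 3 scaled), where 34.7% of all genes were higher and 18.9% lower.
Of 12 genes of p27 turnover and FoxO, 4 were higher and 3 lower in ST than in LT 1dEB (3 and 6 scaled), where 38.4% of all genes were called (40.8% scaled), among them the kinase gene Akt1 (1.76), Foxo3, an activator of Cdkn1b (0.69), and Cks1b, a cofactor of p27 degradation (-0.56). At 1dMeioLC, 0 were higher and 6 lower (2 and 4 scaled), beside 17.4% and 17.7% of all genes, with Skp2, which targets p27 for degradation, at -0.41. In ST against LT 1dEB, Foxo3 (0.69) and Cdkn1b (-0.37) differed in direction. Foxo3 rose with Cdkn1b in PGC culture, from 29.7 to 66.2 TPM (1.13, limma adjusted p = 4.98e-08), where 3 of the 12 were higher and 4 lower (3 and 3 scaled), near the share of all genes called (53.6%). Of 11 tested genes among 12 other regulators of p21, 3 were higher and 1 lower in ST than in LT 1dEB (3 and 2 scaled), again near the share of all genes called (38.4%). The TGF-beta signal transducer Smad3 rose from 2.66 to 11.9 TPM (1.82, limma adjusted p = 8.42e-07), the ligand gene Tgfb1 by 1.23 and Klf6 by 1.04, while Hdac1, a repressor of Cdkn1a, was lower (-0.30).

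Across the 16 libraries, Cdkn1a, Cdkn2a and Cdkn2b varied together, Cdkn1b varied with Cdkn2c, and Cdkn2d was nearest to Cdkn1b. As a description, Pearson's r of log2(TPM + 1) was 0.974 between Cdkn1a and Cdkn2b, 0.936 between Cdkn2a and Cdkn2b and 0.898 between Cdkn1a and Cdkn2a. It was 0.871 between Cdkn1b and Cdkn2c, 0.693 between Cdkn1b and Cdkn2d and 0.543 between Cdkn2c and Cdkn2d. The 9 pairs across these sets were all negative, from -0.810 (Cdkn1b and Cdkn2a) to -0.260 (Cdkn1a and Cdkn2c). The points share libraries, groups and total TPM, so no p is given. Cdkn2a was at 0.278 TPM or less outside 1dEB, and Cdkn2c at 0.583 TPM or less at 1dEB and 0 in E10.5PGC. Their r values thus largely contrast groups near 0 TPM with the others. Among 7831 candidate genes, those most like Cdkn1a were Itga5 (r = 0.989), an integrin of fibronectin, Hbegf (0.988), a growth factor of the EGF family, Bgn (0.987), a matrix proteoglycan, Pakap (0.985) and Ltbp3 (0.984), a binding protein of latent TGF-beta. Most opposite were Plk4 (-0.951), the kinase of centriole duplication, and Rhox6 (-0.948). For Cdkn2b the nearest were Timp1 (0.990), an inhibitor of matrix proteases, Hist1h1c (0.990), Twist2 (0.984), a mesenchymal factor, Serpine2 (0.983) and S100a6 (0.983). The genes most opposite to Cdkn2b were Prc1 (-0.950) and Ndc80 (-0.939), both of the mitotic spindle.
Cdkn1b lay nearest to Fbn2 (0.989), a fibrillin, Tktl1 (0.989), Reep1 (0.987), Pabpc4l (0.986) and Fadd (0.986), an adaptor of death receptors, and opposite to Bax (-0.993), a p53 target that promotes apoptosis. Cdkn2d had weaker likeness, with Fthl17f (0.959), Ccl27a (0.956), Psmc6 (0.950), Trap1a (0.946) and Mrpl47 (0.939) nearest and Kmt5c (-0.939) and Baz1b (-0.935) opposite. Cdkn2a and Cdkn2c stayed below 5 TPM in every group mean and were not ranked.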

How the data were processed

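Total RNA was sequenced after library preparation by NEBNext Ultra (per the labels' protocols). The authors deposited 1 table of TPM values per gene. Tools listed without roles in the submitters' processing notes are HISAT2, Bowtie2, RSEM, DESeq2 and R 3.4.2, with the build mm10. Of its 28 columns, 12 carry 6 repeated names and were not used, so EpiLC and PGCLC samples are not analysed here. Depth per library is unknown. The 6 genes and all lists were chosen with earlier results of these data known. Values were tested with limma 3.58.1 (R 4.3.3) on log2(TPM + 1) in 1 fit of 16 libraries, with a mean trend, for 21935 genes at 1 TPM or more in 2 or more libraries, which include all 6. P-values were Benjamini-Hochberg adjusted within each of 13 comparisons and 2 stage differences, and called under 0.05. The scaled alternative sets nuclear protein-coding genes (GENCODE M21) to the same total and tests 22746 genes. The fit was tested on simulated data. Named from each list were up to 4 called genes with the largest change in ST against LT and up to 3 elsewhere. Trp53, Trp53cor1, Tigar and the markers Col1a1, Hba-a1 and Ptprc were named outside this rule in some comparisons, after their values were seen. The 5 most like and 2 most opposite genes by Pearson's r (below -0.8) were named for genes reaching 5 TPM, among genes reaching 10 TPM and leaving out Gm and Rik symbols; a gene this rule names is not reported here. Alternatives were pseudocounts of 0.1 and 5, no filter, a filter of 5 TPM, quantile normalization, fits of only the groups compared, no trend, a replicate block, and leaving out each library. Added after seeing the data were a fit without RT 1dEB and scaling with a pseudocount of 0.1. Replicate numbers were not used to pair libraries in the main fit.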

Additional observations from a re-analysis of the deposited data

Results flagged for a closer look

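For 5 of the 6 genes, both differences between lines changed from 1dEB to 1dMeioLC for TPM as deposited. The calls are by the interaction test of limma (Benjamini-Hochberg adjusted over all genes). Of all genes, 38.6% were called in the ST minus LT contrast and 42.2% in the RT minus ST contrast. Both contrasts use the same ST libraries, so they are not independent. The ST minus LT difference changed, from 1dEB to 1dMeioLC, by -3.04 for Cdkn1a (limma adjusted p = 1.16e-08), -4.23 for Cdkn2b (7.55e-08), -1.37 for Cdkn2a (0.00154), -0.77 for Cdkn2d (0.0116) and 0.41 for Cdkn1b (0.0115). The RT minus ST difference changed by 0.69 for Cdkn1a (limma adjusted p = 0.000156), 2.48 for Cdkn2b (2.19e-06), 0.86 for Cdkn2a (0.0175), 1.48 for Cdkn2d (0.000199) and -0.82 for Cdkn1b (0.000154). In the first contrast the call of Cdkn2d was lost with protein-coding scaling (-0.50, adjusted p = 0.0563), that of Cdkn2a at a pseudocount of 0.1 TPM (adjusted p = 0.0628) and that of Cdkn1b at a pseudocount of 5 TPM (adjusted p = 0.052). The values of Cdkn1a and Cdkn2a in the second contrast were not called with protein-coding scaling (-0.06 and 0.43).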

How the results depend on the processing

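The calls of Cdkn1a and Cdkn2b at 1dEB kept their side of the threshold in every alternative run, and Cdkn1a in ST minus LT ranged from 3.23 to 3.44 over 15 settings (limma adjusted p from 9.44e-11 to 0.000392). Counts of called genes moved by over 1.5 times in few settings, and the cause was not tested. In RT minus ST 1dEB the count went from 5 to 3 with protein-coding scaling (at a pseudocount of 1 or 0.1), with quantile normalization and with only the groups compared, and in RT minus LT 1dEB from 2 to 4 with protein-coding scaling. The RT minus ST stage difference went from 5 to 3 with both scalings and quantile normalization. The ST minus LT stage difference went from 5 to 3 with scaling and a pseudocount of 0.1, and ST minus PGC 1dMeioLC from 4 to 2 at a pseudocount of 0.1. Leaving out 1 library gave 2 to 3 in ST minus PGC 1dMeioLC and in RT minus LT 1dMeioLC (4 with all), and 2 in ST minus LT 1dMeioLC (3 with all). Values that changed sign, given for scaling, then quantile normalization, then scaling with a pseudocount of 0.1, were those of Cdkn2d in RT minus ST 1dEB (0.17, 0.19 and 0.18) and RT minus LT 1dEB (0.29, 0.21 and 0.31), and Cdkn1a in RT minus PGC 1dMeioLC (-0.158, -0.055 and -0.162). With both scalings only, Cdkn2d also changed sign in PGC culture (0.047 and 0.049) and LT minus PGC 1dMeioLC (-0.070 and -0.073), and Cdkn1a in the RT minus ST stage difference (-0.060 and -0.078). Cdkn2c changed sign in the ST minus LT stage difference at a pseudocount of 0.1 (-0.20, scaled -0.022) and in the RT minus ST one at a pseudocount of 5 (-0.059) and scaled (-0.079), and Cdkn2a in PGC culture with quantile normalization (-0.15). Leaving out 1 library changed the sign of values near 0. These ranged in PGC culture from -0.12 to 0.14 (Cdkn2a), in RT minus LT 1dEB from -0.037 to 0.063 (Cdkn1b), -0.19 to 0.088 (Cdkn2c) and -0.35 to 0.086 (Cdkn2d), and in LT minus PGC 1dMeioLC from -0.13 to 0.22 (Cdkn2a), -0.011 to 0.41 (Cdkn2c) and -0.012 to 0.18 (Cdkn2d). They ranged from -0.040 to 0.040 for Cdkn1a in RT minus PGC 1dMeioLC, -0.023 to 0.099 for Cdkn1b in ST minus LT 1dMeioLC, -0.0094 to 0.42 for Cdkn2c in RT minus LT 1dMeioLC and -0.19 to 0.25 for Cdkn2c in the RT minus ST stage difference. Of 408 gene values without 1 library, 360 kept direction and call and 28 lost the call. The fit without RT 1dEB changed none of 66. The differences of replicate 1 minus replicate 2 correlated across genes between -0.03 and 0.04 over 28 pairs of groups. No shift common to libraries of the same number was thus seen, and whether they shared a culture or batch is not known. The replicate block moved no count of calls by over 1.5 times. It lost 1 call, Cdkn2d in ST minus PGC 1dMeioLC (-0.39, limma adjusted p = 0.0522). Without read counts, values under about 1 TPM, as for Cdkn2a and Cdkn2c, have no counting error given.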
